A study of Rattus norvegicus with 19 samples.

Results

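Left ventricles of rats with heart failure with preserved ejection fraction (HFpEF) that had received empagliflozin (EMPA) and pirfenidone (PFD) together for 4 weeks were compared with left ventricles taken at week 5, when the disease had been induced and no drug had been given. Members were chosen by their group label, and 6 of the 19 libraries of the series were in the comparison, 3 EMPA + PFD and 3 HFpEF. The comparison asks how the hearts after combined treatment differed from the diseased hearts at its start. As the EMPA + PFD hearts were also 4 weeks older, treatment and time cannot be told apart in it, and the same weeks in control rats and in untreated HFpEF rats are given beside it.

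All rats were Sprague-Dawley, 24 weeks old at the start, and labelled male and wildtype in the RNA sequencing. HFpEF rats drank L-NAME, an inhibitor of nitric oxide synthases, at 0.5 g/L and ate a high-fat diet with 60% of its energy from lard for 5 weeks, and the HFpEF libraries were made at that time. EMPA + PFD rats then received EMPA at 0.35 g/kg, by gavage in PBS, and PFD at 0.3 g/kg orally, both daily until week 9. Untreated rats received PBS alone. EMPA inhibits the renal glucose transporter SGLT2, and PFD is an antifibrotic drug. Control rats had neither L-NAME nor the high-fat diet and were sampled at week 5 (control 5w) and week 9 (control 9w). The authors' methods give 5 weeks of L-NAME and diet, and their discussion speaks of 9 weeks of induction. Whether the treated and untreated rats stayed on both until week 9 is therefore open. EMPA alone and PFD alone had 2 libraries each, and every other group had 3. Apart from 2 genes of the major histocompatibility complex and 2 genes checked against the labels, these 2 drug groups entered only the shared model.

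Counts per gene summed to 12205327, 9386791 and 10857636 in the HFpEF libraries and 9360259, 10318343 and 10693001 in the EMPA + PFD libraries. Each file listed 17455 genes, of which 12388 had enough counts to be tested. The 10 genes with most counts held 4.77, 5.42 and 6.13% of the counts in the HFpEF libraries and 10.4, 11.6 and 10.3% in the EMPA + PFD libraries. Levels are given below as CPM, counts scaled to effective library sizes, always in the order of libraries 1, 2 and 3 of a group. Differentially expressed genes (DEGs) had an adjusted p under 0.05 and at least a 2-fold difference. Errors of log2 fold changes are standard errors derived from the F test of the shared model, with 3 libraries in each group compared.

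The labels were checked first against genes that mark them. The Y-linked gene Eif2s3y had 0, 855 and 0 counts in the HFpEF libraries and 825, 906 and 999 counts in the EMPA + PFD libraries, although all are labelled male. HFpEF libraries 1 and 3 therefore lacked a male marker that HFpEF library 2 and the 3 EMPA + PFD libraries carried, and their sex cannot be told apart from their group in much of the comparison. LOC100911498, an unnamed locus grouped here with genes of the Y chromosome and X inactivation, had the opposite pattern. It had 27077, 1 and 17699 counts in the HFpEF libraries and 2, 1 and 4 counts in the EMPA + PFD libraries. Across the 19 libraries it had at least 13032 counts where Eif2s3y had none, and at most 12 where Eif2s3y had counts. Many results below are therefore also given with HFpEF library 2 as the single baseline library, an alternative added after seeing the data in which that library was assumed to vary like the other groups. The tissue label was met by ventricular genes: Myl2, the ventricular regulatory light chain, was at 621, 603 and 1439.7 CPM in the HFpEF libraries and 2507, 2612 and 2347 CPM in the EMPA + PFD libraries, whereas the atrial light chain Myl4 was between 4.02 and 10.2 CPM in all 6. Correlations of log CPM across genes were 0.974 to 0.983 within EMPA + PFD, 0.926 to 0.970 within HFpEF and 0.841 to 0.939 between the groups. HFpEF library 1 stood apart, with the lowest sum of cardiomyocyte markers and the highest sums of macrophage, Schwann cell and cartilage markers among the 6.

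An adult heart makes most of its ATP in mitochondria, chiefly by oxidising fatty acids, and spends it on the cross-bridges of the sarcomere and on pumping calcium back into the sarcoplasmic reticulum. Fibroblasts deposit the collagen-rich matrix between the muscle cells, transforming growth factor beta (TGF-beta) drives that deposition, and resident and recruited macrophages clear debris and secrete cytokines. In HFpEF a stiff, fibrotic and inflamed ventricle fills poorly although its ejection fraction is kept.

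Genes of fuel oxidation, the sarcomere and calcium handling were higher in the EMPA + PFD hearts, and genes of the extracellular matrix, complement, macrophages and the non-muscle cytoskeleton were lower. Of 12388 genes tested, 2813 (22.7%) were DEGs, 1330 higher (10.7%) and 1483 lower (12.0%). At least 4-fold differences were found for 354 higher and 416 lower DEGs. The 3 libraries of one group lay wholly above or below the other 3 for 6771 genes (54.7%), 3337 higher and 3434 lower in EMPA + PFD, and for 2599 of the 2813 DEGs. The median log2 fold change of all genes tested was -0.09. Upper quartile scaling moved it to -0.20 and gave 1150 higher and 1763 lower DEGs. With HFpEF library 2 as the single baseline library 1780 DEGs were found, 1055 higher and 725 lower, and a term for Eif2s3y counts in the model gave 1759, 1031 higher and 728 lower, 1271 of them shared with the 2813. Only HFpEF mixes libraries with and without Eif2s3y, so the term is estimated from HFpEF library 2 against libraries 1 and 3 and is not a separate test. In whole ventricle, fewer cells of a type and less RNA per cell cannot be told apart, so each list below carries the mix of cells as well as their activity.

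The 10 largest rises, 10 largest falls and 8 smallest adjusted p were ranked only among DEGs whose groups did not overlap. Their separation was therefore set by the choice. Among those rises were Pik3c2g, Sphkap, Pdk4 and Chrm2. Pik3c2g, a class II phosphoinositide 3-kinase, was at 3.37, 8.53 and 11.2 CPM in the HFpEF libraries and 277, 298 and 289 CPM in the EMPA + PFD libraries (log2 fold change 5.24 ± 1.03, adjusted p = 0.00152). The 3 EMPA + PFD libraries were close to each other and far above the HFpEF libraries. Sphkap, an anchoring protein of protein kinase A, was at 4.81, 4.22 and 8.40 CPM at baseline and 60.9, 149 and 108 CPM after treatment (log2 fold change 4.19 ± 0.53, adjusted p = 0.000187). Chrm2, the muscarinic receptor through which the vagus slows the heart, was at 3.88, 2.84 and 8.40 CPM and 46.7, 111 and 68.0 CPM (log2 fold change 3.90 ± 0.46, adjusted p = 0.000176). For both Sphkap and Chrm2, EMPA + PFD library 1 was the lowest of its group. Cacng6, a calcium channel gamma subunit, rose from 0.215, 0.642 and 0.268 CPM to 5.56, 8.49 and 8.15 CPM (log2 fold change 4.29 ± 0.73, adjusted p = 0.000729), and Rims1, a presynaptic scaffold protein, rose from 0.215, 0.642 and 1.79 CPM to 6.98, 43.8 and 35.8 CPM (log2 fold change 5.05 ± 1.03, adjusted p = 0.00188). Slc27a2, a fatty acid transporter and acyl-CoA synthetase, rose from 0.359, 0.183 and 0.0893 CPM to 6.62, 4.42 and 6.16 CPM (log2 fold change 4.64 ± 0.91, adjusted p = 0.00189). All 3 were low in every HFpEF library, and Rims1 was more than 5 times lower in EMPA + PFD library 1 than in libraries 2 and 3.

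The rest of the 10 included 2 genes of the major histocompatibility complex (MHC), whose reads the counting could have split among near-identical copies. RT1-CE16, an MHC class I gene, had 7 counts in the HFpEF libraries together and 1454 in the EMPA + PFD libraries, a ratio of 284 (95% counting interval 137 to 707). RT1-Bb, an MHC class II beta chain, had no counts in the HFpEF libraries and 417 in the EMPA + PFD libraries, at least 61.0-fold higher by group means with a floor of 3 counts per library. Both were also near or at 0 in control 5w and in EMPA alone and present in control 9w, untreated and PFD alone. Inherited MHC type and group therefore cannot be told apart for them. The same split fell between control 5w and control 9w. Any difference in the breeding stock of the rats would coincide with group for all genes in both comparisons, and was not tested. Intervals and floors here cover counting error only.

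Several of the 10 largest falls were in genes of matrix and secreted proteins. Thbs4, a matricellular protein induced in the loaded heart, was at 519, 72.0 and 348 CPM in the HFpEF libraries and 1.06, 4.30 and 5.22 CPM in the EMPA + PFD libraries (log2 fold change -6.45 ± 1.69, adjusted p = 0.00720). Spp1, which encodes osteopontin, was at 536, 14.7 and 162 CPM and 0.355, 3.71 and 4.39 CPM (log2 fold change -6.38 ± 1.66, adjusted p = 0.00699). For both, HFpEF library 2 was the lowest of its group. Ccn5, a matricellular growth regulator, fell from 294, 71.9 and 85.5 CPM to 0.828, 1.79 and 0.836 CPM (log2 fold change -7.03 ± 2.01, adjusted p = 0.0115), Sfrp4, a secreted modulator of Wnt signaling, from 41.0, 4.03 and 44.3 CPM to 0.237, 0.359 and 0.627 CPM (log2 fold change -6.13 ± 1.78, adjusted p = 0.0125), and Comp, a cartilage and tendon matrix protein, from 402, 3.30 and 29.4 CPM to 1.66, 1.08 and 2.72 CPM (log2 fold change -6.29 ± 1.53, adjusted p = 0.00488). Their HFpEF libraries were spread over more than 3-fold, and for Comp over more than 100-fold, with library 1 the highest for Ccn5 and Comp. Cilp2, a cartilage matrix protein, had 592, 8 and 66 counts in the HFpEF libraries and none in the EMPA + PFD libraries, at least 47.8-fold lower by group means, and at least 9.82-fold by pooled counts without HFpEF library 1. Ccl9, a macrophage chemokine, had 144, 8 and 63 counts in the HFpEF libraries and 2 in the EMPA + PFD libraries together, a ratio of 78.7 (95% counting interval 21.5 to 654). Tac3, a tachykinin peptide, had 152, 11 and 73 and 2, a ratio of 86.4 (95% counting interval 23.7 to 718), and Pmfbp1, a sperm flagellar protein, had 167, 3 and 31 and 2, a ratio of 73.6 (95% counting interval 20.1 to 612). Without HFpEF library 1 these ratios were 42.4, 50.2 and 20.3, and without EMPA + PFD library 3, which held both counts of Ccl9, that gene was at least 16.7-fold lower. Prrx2, a homeobox factor of mesenchymal cells, had 434 counts and 5 counts, a ratio of 63.6 (95% counting interval 27.0 to 197). Against HFpEF library 2 alone, Thbs4 (-4.33, adjusted p = 0.0953), Spp1 (-2.36, adjusted p = 0.326), Ccn5 (-5.96, adjusted p = 0.0694), Sfrp4 (-3.24, adjusted p = 0.289), Comp (-0.84, adjusted p = 0.676) and, by adjusted p, Cilp2 (0.283), Ccl9 (0.155), Tac3 (0.144) and Pmfbp1 (0.624) no longer passed. Pmfbp1 also failed without HFpEF library 1 (adjusted p = 0.0713).

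All 8 DEGs with the smallest adjusted p were higher in EMPA + PFD, RT1-CE16 among them. Fbxo32, the ubiquitin ligase atrogin-1, was at 8.11, 8.34 and 11.3 CPM in the HFpEF libraries and 40.9, 56.3 and 46.8 CPM in the EMPA + PFD libraries (log2 fold change 2.37 ± 0.25, adjusted p = 0.000174). Nebl, a nebulin family protein of the thin filament and Z-disc, was at 28.3, 27.5 and 40.2 CPM and 98.5, 234 and 200.4 CPM (log2 fold change 2.47 ± 0.27, adjusted p = 0.000174). Ppp2r3a, a regulatory subunit of protein phosphatase 2A, was at 48.4, 54.6 and 74.2 CPM and 231, 316 and 292 CPM (log2 fold change 2.24 ± 0.23, adjusted p = 0.000174). Every EMPA + PFD library was more than 2 times as high as every HFpEF library for each of these 3 genes. Limch1, an activator of non-muscle myosin, rose by 2.17 on the log2 scale, Tom1l2, an endosomal sorting protein, by 1.58, Phkb, a subunit of phosphorylase kinase, by 1.49, and Csnk2a1, the catalytic subunit of casein kinase 2, by 1.40.

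**Figure D1:**
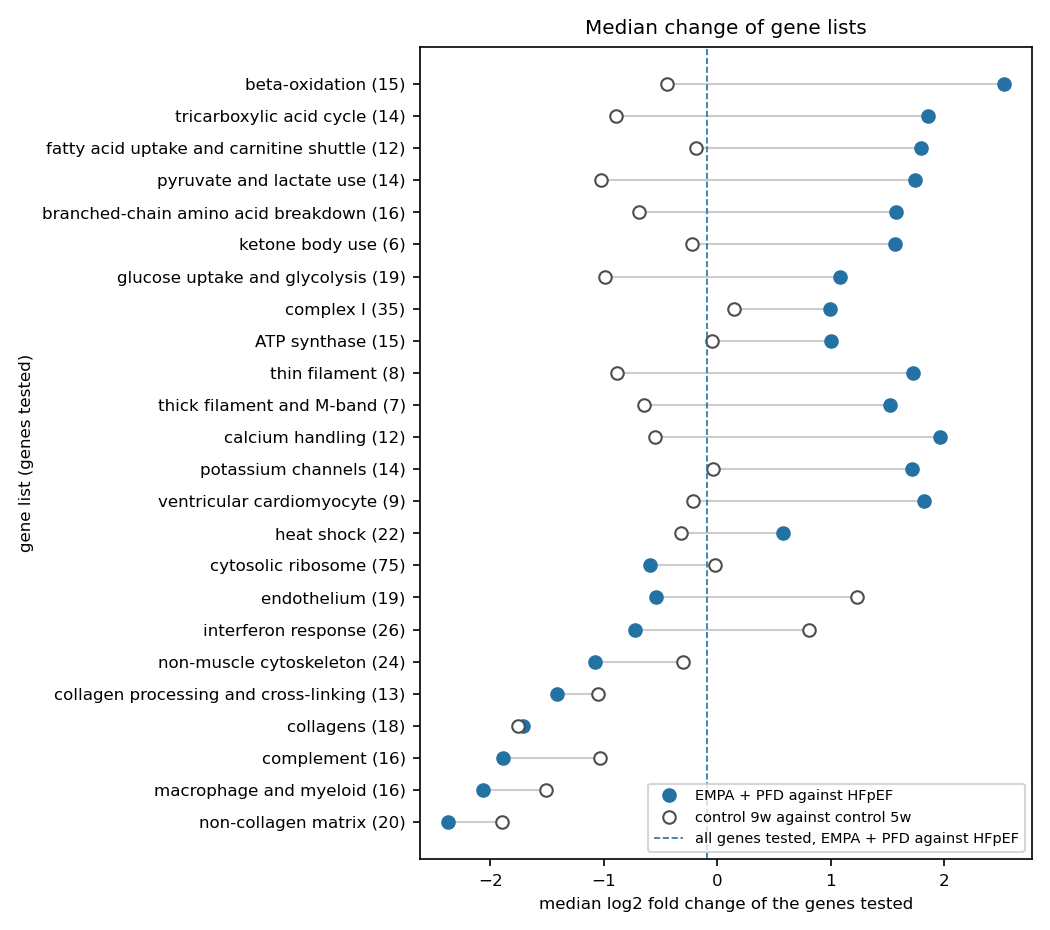
Median log2 fold change of the genes tested in each of 24 gene lists, for EMPA + PFD against HFpEF (filled circles) and for control 9w against control 5w (open circles), with the median of all genes tested for EMPA + PFD against HFpEF as a dashed line at -0.09. Lists of fuel oxidation and contraction lie to the right, up to 2.53 for beta-oxidation, and lists of matrix, complement and macrophages to the left, down to -2.37 for non-collagen matrix.

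Genes of fatty acid oxidation and the tricarboxylic acid (TCA) cycle were higher in EMPA + PFD. Of 15 beta-oxidation genes 14 were higher and none lower, with a median log2 fold change of 2.53 against -0.09 for all genes tested, and all 14 TCA cycle genes were higher (median 1.86). Hadh, which oxidises hydroxyacyl-CoA in the mitochondrial matrix, was at 41.8, 57.1 and 97.7 CPM in the HFpEF libraries and 660.0, 899 and 837 CPM in the EMPA + PFD libraries (log2 fold change 3.61 ± 0.66, adjusted p = 0.00103). Hadhb, the thiolase subunit of the trifunctional protein, was at 276, 309 and 518 CPM and 2861, 4335 and 3625 CPM (log2 fold change 3.29 ± 0.55, adjusted p = 0.000677). The groups were more than 5-fold apart for both, and HFpEF library 3 was the highest of the baseline libraries. Decr1, which oxidation of unsaturated fatty acids needs, rose by 2.69 ± 0.45. Etfb, a subunit of the flavoprotein that takes electrons from these dehydrogenases, was the beta-oxidation gene that did not pass (log2 fold change 1.08 ± 0.43, adjusted p = 0.0519), although its 3 EMPA + PFD libraries were the highest, and it passed without HFpEF library 3 (1.37, adjusted p = 0.0384). With only HFpEF library 2 at baseline, 7 beta-oxidation genes and 11 TCA cycle genes passed, with medians of 2.65 and 2.06.

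In the TCA cycle, Cs, the citrate synthase at its entry, was at 139, 135 and 220.1 CPM in the HFpEF libraries and 799, 1267 and 1153 CPM in the EMPA + PFD libraries (log2 fold change 2.70 ± 0.43, adjusted p = 0.000488). Ogdh, the oxoglutarate dehydrogenase, was at 90.9, 85.3 and 135 CPM and 520.2, 786 and 683 CPM (log2 fold change 2.68 ± 0.36, adjusted p = 0.000244). No EMPA + PFD library fell within the HFpEF range for these 2 genes, and library 1 was the lowest of the EMPA + PFD libraries for each. The smallest rise of the list was 1.54 and the largest 2.70. Leaving out any 1 library left 13 or 14 of the 14 genes passing.

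Genes of fatty acid uptake and pyruvate use were mostly higher as well. Of 12 genes of fatty acid uptake and the carnitine shuttle 8 were higher and 1 lower (median 1.79). Acsl1, which activates long-chain fatty acids to acyl-CoA, was at 133, 255 and 338 CPM in the HFpEF libraries and 1109.8, 2108 and 1689.7 CPM in the EMPA + PFD libraries (log2 fold change 2.76 ± 0.55, adjusted p = 0.00173), and Crat, the carnitine acetyltransferase, was at 118, 159 and 239.7 CPM and 852, 1462 and 1199 CPM (log2 fold change 2.77 ± 0.53, adjusted p = 0.00139). Both genes were at least 3 times as high in every EMPA + PFD library as in any HFpEF library. Cd36, the fatty acid translocase of the cell membrane, was at 194, 511 and 492 CPM and 506, 509 and 704 CPM, with overlapping groups (log2 fold change 0.52 ± 0.37, adjusted p = 0.259). Of 14 genes of pyruvate and lactate use 12 were higher and 1 lower (median 1.74). They included both sides of the switch on pyruvate dehydrogenase: its subunit Pdha1 rose by 1.85 ± 0.32, Pdp1, the phosphatase that turns the complex on, by 1.70 ± 0.25, and Pdk4, a kinase that turns it off, from 55.2, 28.5 and 140.0 CPM to 443, 1791 and 1673 CPM (log2 fold change 4.13 ± 0.65, adjusted p = 0.000473). For Pdk4, EMPA + PFD library 1 was less than 0.3 times as high as libraries 2 and 3. Acot2, a mitochondrial acyl-CoA thioesterase and target of PPAR-alpha, rose by 3.56 ± 0.69, a value that counting could have split with its near-identical neighbour Acot1 (3.26 ± 0.60). Taking HFpEF library 2 as the only baseline, 4 uptake and 9 pyruvate genes were higher.

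Genes that use ketone bodies, branched-chain amino acids and glucose went the same way. Of 6 genes of ketone body use 5 were higher (median 1.56), among them Oxct1, the enzyme that activates acetoacetate (433, 309 and 726 CPM in HFpEF, 1501, 1593 and 1407 CPM in EMPA + PFD; log2 fold change 1.62 ± 0.45, adjusted p = 0.00970), and Slc16a1, a monocarboxylate transporter (log2 fold change 1.97 ± 0.45, adjusted p = 0.00346). Bdh1, the hydroxybutyrate dehydrogenase, did not pass (log2 fold change 0.81 ± 0.59, adjusted p = 0.263). All 15 DEGs among 16 genes of branched-chain amino acid breakdown were higher (median 1.58). Aldh6a1, of the valine pathway, was at 72.6, 110.0 and 155 CPM in the HFpEF libraries and 606, 739 and 735 CPM in the EMPA + PFD libraries (log2 fold change 2.62 ± 0.42, adjusted p = 0.000509), and Ppm1k, the phosphatase that activates the branched-chain ketoacid dehydrogenase, rose by 2.29 ± 0.32. Both were clear of the HFpEF range in all 3 libraries. Of 19 genes of glucose uptake and glycolysis 9 were higher and none lower (median 1.08), including Pfkm, the muscle phosphofructokinase (log2 fold change 2.36 ± 0.49, adjusted p = 0.00214) and Hk2, a hexokinase (log2 fold change 1.57 ± 0.29, adjusted p = 0.00119). With HFpEF library 2 as the single baseline library 12 genes of branched-chain amino acid breakdown, 11 of glycolysis and 5 of ketone body use passed.

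Respiratory chain genes were higher in part, beside 10.7% of all genes tested. Complex I had 16 of 35 subunits higher (median 0.99), complex II 4 of 4 (1.57), complex III 4 of 9 (0.86), complex IV 3 of 12 (0.78) and ATP synthase 8 of 15 (1.01), and none was lower. Ndufs1, the large iron-sulfur subunit of complex I, was at 155, 149 and 344 CPM in the HFpEF libraries and 1072, 1816 and 1487 CPM in the EMPA + PFD libraries (log2 fold change 2.76 ± 0.51, adjusted p = 0.00110). Sdha, the flavoprotein of complex II, was at 243, 255 and 407 CPM and 1149, 1665 and 1332 CPM (log2 fold change 2.20 ± 0.37, adjusted p = 0.000676), and Uqcrc2, a core subunit of complex III, at 275, 378 and 542 CPM and 1518, 1970.0 and 1873 CPM (log2 fold change 2.17 ± 0.40, adjusted p = 0.00116). Each was at least 2 times as high in every EMPA + PFD library as in any HFpEF library. Atp5f1a, a catalytic-core subunit of ATP synthase, rose by 2.30 ± 0.54, while the complex I subunit Ndufb9 did not pass (log2 fold change 0.65 ± 0.42, adjusted p = 0.212). These counts rested on single libraries: complex I had 4, 8, 9 and 7 DEGs without HFpEF library 1, HFpEF library 2, EMPA + PFD library 1 and EMPA + PFD library 2. In the same order complex IV had 0, 1, 1 and 1, and 6 without HFpEF library 3. Complex III had 2 without HFpEF library 1, and ATP synthase 4 without HFpEF library 1, HFpEF library 2 or EMPA + PFD library 2. Against HFpEF library 2 alone 1 complex I subunit and 2 ATP synthase subunits passed, at medians of 0.99 and 1.04, as did 1 subunit of complex II, 1 of complex III and none of complex IV.

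Some regulators of mitochondrial gene expression were higher. Of 13 coactivators and nuclear receptors of mitochondrial biogenesis 7 were higher and none lower (median 1.12). Ppargc1a, the coactivator PGC-1-alpha, was at 6.03, 9.08 and 12.3 CPM in the HFpEF libraries and 36.1, 94.0 and 90.3 CPM in the EMPA + PFD libraries (log2 fold change 3.01 ± 0.39, adjusted p = 0.000188). Esrrg, an estrogen-related receptor that binds the promoters of oxidative genes, was at 6.17, 7.52 and 8.57 CPM and 31.9, 60.0 and 50.2 CPM (log2 fold change 2.68 ± 0.32, adjusted p = 0.000176), and its relative Esrrb was at 0.431, 1.38 and 1.16 CPM and 7.92, 15.2 and 11.8 CPM (log2 fold change 3.57 ± 0.50, adjusted p = 0.000296). HFpEF levels of all 3 were below every EMPA + PFD level, and EMPA + PFD library 1 was the lowest of its group. Mitochondrial ribosomal proteins had 22 of 71 genes higher and none lower (median 0.75), with 14 without HFpEF library 1 and 8 against HFpEF library 2 alone, whereas cytosolic ribosomal proteins had none of 75 higher and 1 lower (median -0.59). Markers of ventricular cardiomyocytes moved with these lists, 8 of 9 higher (median 1.82), with sums of 11978, 24942 and 35852 CPM in the HFpEF libraries and 72798, 98791 and 81709 CPM in the EMPA + PFD libraries and Myh6 the most abundant. Of these markers 4 were higher without HFpEF library 1 or EMPA + PFD library 2, and 2 against HFpEF library 2 alone. Their part in the rise of the metabolic genes was not tested.

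**Figure D2:**
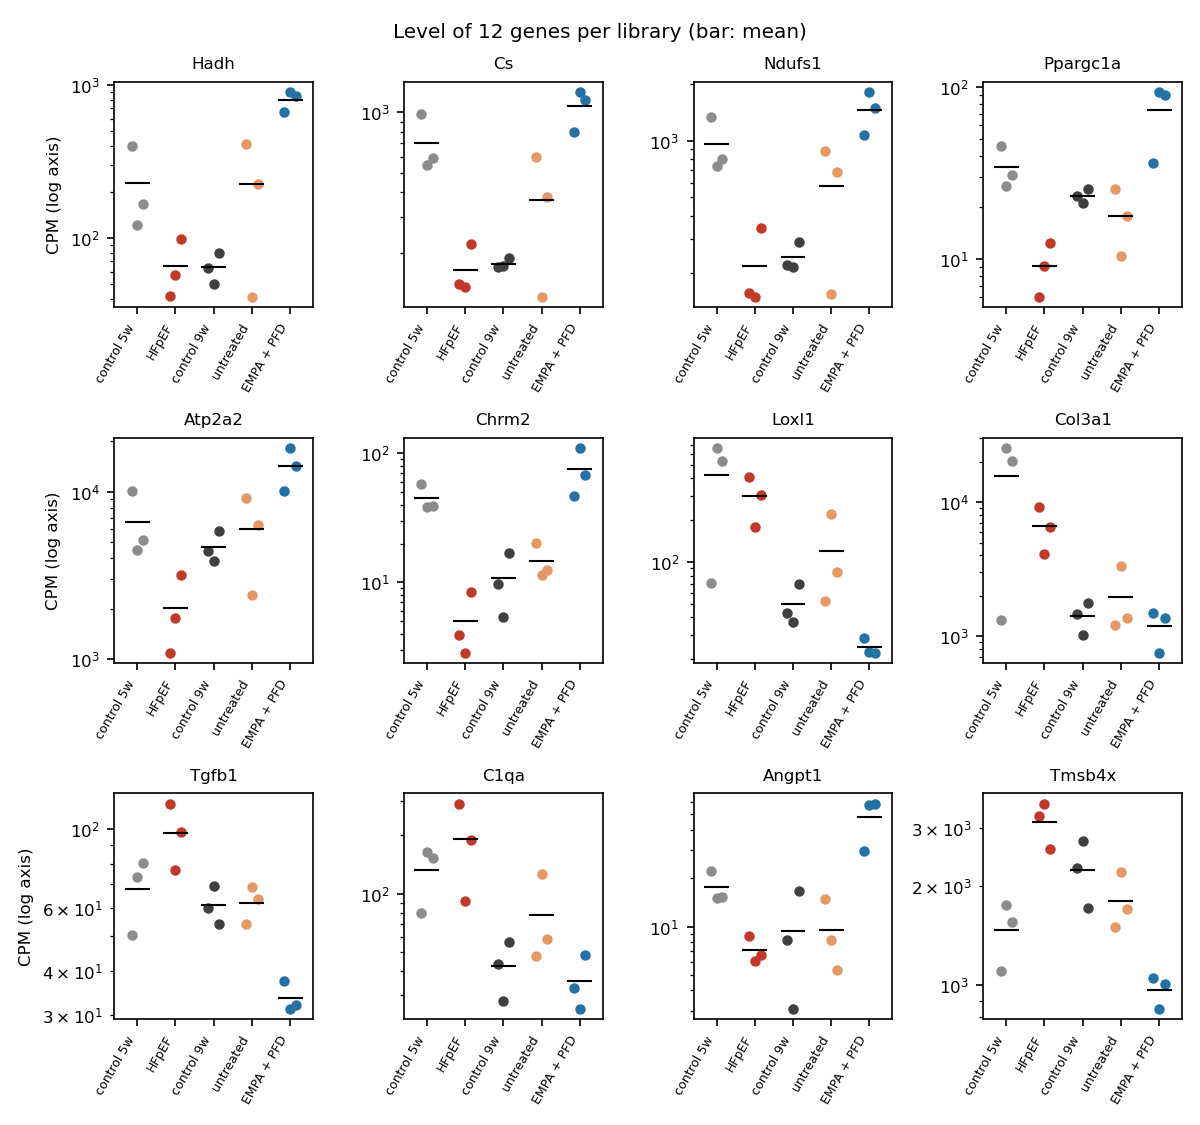
Level of 12 genes in each library of the 5 groups with 3 libraries, as CPM on a log axis, with points for libraries and a bar for the mean of 3 libraries. Hadh was at 41.8, 57.1 and 97.7 CPM in the HFpEF libraries and 660.0, 899 and 837 CPM in the EMPA + PFD libraries, and Loxl1 at 408, 179 and 305 CPM and 28.5, 22.6 and 22.3 CPM.

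The contractile apparatus was higher in the EMPA + PFD hearts, from the filaments to the intercalated disc. All 8 thin filament genes were higher (median 1.73), as were 4 of 7 thick filament and M-band genes (1.52), 7 of 11 Z-disc genes (1.21) and 4 of 6 intercalated disc genes (1.66), and none was lower. Lmod2, which elongates thin filaments, was at 10.2, 4.31 and 13.7 CPM in the HFpEF libraries and 35.7, 119 and 66.8 CPM in the EMPA + PFD libraries (log2 fold change 2.97 ± 0.50, adjusted p = 0.000719). Myom2, which links thick filaments at the M-band, was at 739, 968 and 2055 CPM and 6015, 6754 and 5011 CPM (log2 fold change 2.24 ± 0.51, adjusted p = 0.00328), and Ldb3, a Z-disc scaffold, at 304, 594 and 900.5 CPM and 1968, 3054 and 2175 CPM (log2 fold change 2.00 ± 0.35, adjusted p = 0.00084). Groups did not overlap for these genes, with HFpEF library 3 nearest to the EMPA + PFD range for Myom2. Gja1, the gap junction protein connexin 43, rose by 1.65 ± 0.35 and Cdh2, the cadherin of the intercalated disc, by 1.93 ± 0.37. The thin filament had 4 DEGs without HFpEF library 1 and 5 without HFpEF library 2, and the thick filament 7 without HFpEF library 3. With only HFpEF library 2 at baseline the medians of thin filament, thick filament, Z-disc and intercalated disc were 2.31, 2.05, 1.67 and 1.75, with 5, 3, 8 and 4 DEGs.

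Myosin heavy chains and natriuretic peptides varied among the libraries of a group. Myh6, the fast alpha heavy chain, was at 824, 5542 and 5863 CPM in the HFpEF libraries and 9191, 32560.4 and 28984 CPM in the EMPA + PFD libraries (log2 fold change 2.53 ± 0.77, adjusted p = 0.0160), and did not pass without EMPA + PFD library 2 (2.24, adjusted p = 0.0524) or with HFpEF library 2 as the single baseline library (2.09, adjusted p = 0.153). Myh7, the slow beta chain of the stressed heart, was at 3827, 1446 and 7192 CPM and 20537, 11283 and 4552 CPM (log2 fold change 1.54 ± 0.72, adjusted p = 0.0888), and passed without HFpEF library 3 (2.20, adjusted p = 0.0439) or EMPA + PFD library 3 (1.96, adjusted p = 0.0485). Myh6 was separated between the groups, Myh7 overlapped, and reads of the near-identical chains could have been split in counting. Nppa, the atrial natriuretic peptide, was at 2067, 251 and 1919 CPM and 60.8, 376 and 134 CPM (log2 fold change -2.89 ± 1.81, adjusted p = 0.195), and Nppb, the B-type peptide, at 212, 77.0 and 283 CPM and 136, 139 and 75.7 CPM (log2 fold change -0.71 ± 0.63, adjusted p = 0.362). Both overlapped, as HFpEF library 2 was as low as the EMPA + PFD libraries. Among 10 fetal and hypertrophy genes 1 was higher and 1 lower, with a median of 0.23, of 0.60 without HFpEF library 1, of -0.22 without HFpEF library 2 and of 2.11 with HFpEF library 2 as the single baseline library.

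Calcium handling changed in 12 of 12 genes, 11 higher and 1 lower (median 1.97), and the number of higher genes was 11 whichever of the 6 libraries was left out. Atp2a2, the SERCA pump that refills the sarcoplasmic reticulum, was at 1091, 1774 and 3200.3 CPM in the HFpEF libraries and 10066, 18286 and 14215 CPM in the EMPA + PFD libraries (log2 fold change 2.81 ± 0.51, adjusted p = 0.00101). Ryr2, the channel that releases calcium from it, was at 333, 415 and 777 CPM and 1979, 3469.9 and 2389.8 CPM (log2 fold change 2.36 ± 0.34, adjusted p = 0.000329), and Pln, the inhibitor of the pump, at 783, 1534 and 2219.8 CPM and 6062, 7817 and 5766 CPM (log2 fold change 2.11 ± 0.51, adjusted p = 0.00489). Every EMPA + PFD library lay above every HFpEF library for the 3 genes, and library 2 was the highest. Slc8a1, the exchanger that moves calcium out of the cell, rose by 1.81 ± 0.29 and Trdn, a partner of the release channel, by 1.94 ± 0.30. The gene that fell was Fkbp1b, which stabilises the closed release channel, with 39 counts in the HFpEF libraries and 4 in the EMPA + PFD libraries, a ratio of 7.14 (95% counting interval 2.58 to 27.5), and its call was lost without HFpEF library 1 (adjusted p = 0.0693) or EMPA + PFD library 2 (adjusted p = 0.0592). With HFpEF library 2 as the single baseline library 10 calcium genes passed, all higher, and Pln did not (2.09, adjusted p = 0.0626).

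Many ion channel genes were higher. Of 14 potassium channel genes 12 were higher and none lower (median 1.72), and of 14 sodium channel and pump genes 7 were higher and none lower (1.04). Kcnj3, a channel opened by muscarinic receptors, was at 2.80, 2.57 and 5.63 CPM in the HFpEF libraries and 32.6, 48.5 and 41.9 CPM in the EMPA + PFD libraries (log2 fold change 3.49 ± 0.51, adjusted p = 0.000341). Kcnd2, of the transient outward current, was at 1.58, 1.56 and 2.59 CPM and 16.2, 18.5 and 21.1 CPM (log2 fold change 3.28 ± 0.42, adjusted p = 0.000188), and Scn4b, a beta subunit of the sodium channel, at 14.2, 30.4 and 27.0 CPM and 165, 206 and 242 CPM (log2 fold change 3.10 ± 0.59, adjusted p = 0.00128). The 2 groups were at least 5-fold apart for each of these channels. Hcn4, the pacemaker channel, rose from 4.52, 1.65 and 3.04 CPM to 18.6, 24.7 and 14.3 CPM (log2 fold change 2.62 ± 0.47, adjusted p = 0.000895), again with no overlap. With HFpEF library 2 alone at baseline 7 potassium channel and 7 sodium channel and pump genes passed.

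Kinases and receptors that set contractility were mixed, beside 10.7% higher and 12.0% lower of all genes tested. Of 24 genes of protein kinase C, CaMKII and protein kinase A 7 were higher and 2 lower (median 0.12, and 0.67 with HFpEF library 2 as the single baseline library). None was lower without HFpEF library 1, and 2 or 3 were lower without any other library. Prkce, the epsilon isoform of protein kinase C, was at 5.53, 8.80 and 10.003 CPM in the HFpEF libraries and 23.4, 41.0 and 33.2 CPM in the EMPA + PFD libraries (log2 fold change 2.01 ± 0.25, adjusted p = 0.000176), whereas the beta isoform Prkcb was at 22.3, 7.70 and 14.8 CPM and 6.98, 4.06 and 6.69 CPM (log2 fold change -1.34 ± 0.36, adjusted p = 0.00859). The isoforms thus moved in opposite directions with no overlap of groups, and Prkcb did not pass without HFpEF library 1 (-0.93, adjusted p = 0.0542) or with HFpEF library 2 as the single baseline library (-0.38, adjusted p = 0.519). Camk2d, the main cardiac CaMKII isoform, rose by 1.30 ± 0.18 and Prkar2a, a regulatory subunit of protein kinase A, by 1.66 ± 0.22. Of 12 adrenergic signaling genes 5 were higher and none lower (median 0.99). Adra1a, the alpha-1A receptor, was at 0.718, 1.56 and 2.23 CPM and 11.2, 16.6 and 11.6 CPM (log2 fold change 3.14 ± 0.44, adjusted p = 0.000288), Pde3a, which breaks down cyclic AMP, at 26.3, 17.6 and 25.5 CPM and 78.6, 145 and 119.7 CPM (log2 fold change 2.30 ± 0.26, adjusted p = 0.000174), and Adcy5, a cardiac adenylyl cyclase, rose by 1.97 ± 0.28. Their EMPA + PFD levels were all above the HFpEF levels.

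Matrix genes were lower in the EMPA + PFD hearts. Of 18 collagens 12 were lower and none higher (median -1.71), of 20 non-collagen matrix genes 17 were lower and none higher (-2.37), and of 13 genes that process and cross-link collagen 8 were lower and none higher (-1.41). Col3a1, the chain of type III fibrils, was at 9269.7, 4081 and 6497 CPM in the HFpEF libraries and 1479, 748 and 1365 CPM in the EMPA + PFD libraries (log2 fold change -2.47 ± 0.75, adjusted p = 0.0160). Col1a1, of type I fibrils, was at 2542, 839.6 and 1469 CPM and 411, 236 and 333 CPM (log2 fold change -2.31 ± 0.88, adjusted p = 0.0432), and Col8a1, a short-chain collagen, at 155, 53.3 and 95.2 CPM and 12.3, 8.85 and 12.8 CPM (log2 fold change -3.16 ± 0.82, adjusted p = 0.00702). The groups did not overlap for these collagens, and HFpEF library 1 was the highest and library 2 the lowest at baseline. Col4a1, of the basement membrane, was more even, at 1641, 1427 and 1598 CPM and 788, 640.1 and 718 CPM (log2 fold change -1.12 ± 0.23, adjusted p = 0.00194). The calls of Col3a1 and Col1a1 rested on single libraries, as Col3a1 did not pass without HFpEF library 1 (-2.14, adjusted p = 0.0506) or EMPA + PFD library 2 (-2.20, adjusted p = 0.0686), and Col1a1 did not pass without HFpEF library 1 (-1.82, adjusted p = 0.137), HFpEF library 3 (-2.37, adjusted p = 0.0610) or any EMPA + PFD library (-2.49, -2.10 and -2.30).

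Outside the collagens, Loxl1, which cross-links elastin and collagen, was at 408, 179 and 305 CPM in the HFpEF libraries and 28.5, 22.6 and 22.3 CPM in the EMPA + PFD libraries (log2 fold change -3.60 ± 0.74, adjusted p = 0.00188). Mgp, the matrix Gla protein, was at 3537, 1728 and 2428 CPM and 382, 439 and 522 CPM (log2 fold change -2.52 ± 0.56, adjusted p = 0.00310), and Sparc, a collagen-binding matricellular protein, at 4793, 4986 and 3882 CPM and 1838, 1339 and 1649 CPM (log2 fold change -1.50 ± 0.41, adjusted p = 0.00888). The gap between the groups was widest for Loxl1, at more than 6-fold between the nearest libraries. Dcn, the proteoglycan decorin, was at 2389, 3478 and 2522 CPM and 2194, 789.5 and 1724 CPM and did not pass (log2 fold change -0.83 ± 0.34, adjusted p = 0.0586), except without EMPA + PFD library 1 (-1.14, adjusted p = 0.0263). Of 14 matrix proteases and inhibitors 6 were lower and none higher (median -1.38), including the membrane-bound protease Mmp14 (log2 fold change -1.91 ± 0.51, adjusted p = 0.00839) and the metalloproteinase inhibitors Timp1 (log2 fold change -2.81 ± 0.78, adjusted p = 0.00964) and Timp2 (log2 fold change -1.46 ± 0.35, adjusted p = 0.00458).

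These counts also moved with single libraries. Without HFpEF library 1 there were 3 lower collagens, 11 lower non-collagen matrix genes and 3 lower proteases and inhibitors, and without EMPA + PFD library 2 there were 3 lower collagens and 9 lower non-collagen matrix genes. Against HFpEF library 2 alone 0 collagens, 2 non-collagen matrix genes, 1 cross-linking gene and 0 proteases and inhibitors passed in edgeR, and the medians of the first 3 were -0.60, -1.19 and -0.96. In that setting Col3a1 (-1.77, adjusted p = 0.190), Col1a1 (-1.36, adjusted p = 0.396), Col8a1 (-2.23, adjusted p = 0.120), Col4a1 (-0.996, adjusted p = 0.0420), Mgp (-1.95, adjusted p = 0.0615), Mmp14 (-1.26, adjusted p = 0.170), Timp1 (-0.96, adjusted p = 0.452) and Timp2 (-0.96, adjusted p = 0.134) were no longer DEGs. Fibroblast markers moved with the matrix, 10 of 15 lower and none higher (median -1.81), with sums of 21301, 18567 and 18349 CPM in the HFpEF libraries and 11313, 4138 and 8015 CPM in the EMPA + PFD libraries and Gsn the most abundant. Of them 6 were lower without HFpEF library 1 or EMPA + PFD library 2, and 3 against HFpEF library 2 alone. Pi16, of adventitial fibroblasts, was at 516, 796 and 487 CPM and 40.0, 44.5 and 51.4 CPM (log2 fold change -3.73 ± 0.64, adjusted p = 0.000758), separated by more than 9-fold, whereas Tcf21, a fibroblast transcription factor (log2 fold change -0.49 ± 0.43, adjusted p = 0.362) and Gsn, the actin-severing protein gelsolin (log2 fold change -0.26 ± 0.46, adjusted p = 0.656), did not pass. The part of the fibroblast share in the fall of the matrix genes was not tested.

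Some genes of TGF-beta signaling were lower, the ligand Tgfb1 among them, as were 12.0% of all genes tested. Tgfb1 was at 118, 76.9 and 98.0 CPM in the HFpEF libraries and 37.5, 31.2 and 32.0 CPM in the EMPA + PFD libraries (log2 fold change -1.54 ± 0.18, adjusted p = 0.000176). All 3 EMPA + PFD libraries were less than 0.5 times the lowest HFpEF library, with little spread. Of 17 ligands, receptors and SMADs 6 were lower and none higher (median -0.69), and of 10 TGF-beta targets 4 were lower and none higher (-1.07). Id3, a target of BMP and TGF-beta receptors, was at 194, 251 and 163 CPM and 119.7, 69.2 and 70.0 CPM (log2 fold change -1.23 ± 0.31, adjusted p = 0.00556), without overlap. Ccn2, the connective tissue growth factor, was at 2102, 428 and 1053 CPM and 103, 374 and 148 CPM (log2 fold change -2.52 ± 0.94, adjusted p = 0.0404). Ccn2 was separated between the groups but did not pass without HFpEF library 1 (-1.83, adjusted p = 0.152), HFpEF library 3 (-2.60, adjusted p = 0.0555), EMPA + PFD library 1 (-2.17, adjusted p = 0.120) or EMPA + PFD library 3 (-2.30, adjusted p = 0.118), nor with HFpEF library 2 as the single baseline library (-1.04, adjusted p = 0.541). Without EMPA + PFD library 2 or 3, 3 ligands and receptors passed, and of the targets 1 passed without HFpEF library 1, 2 without EMPA + PFD library 2 and 1 without EMPA + PFD library 3. Against HFpEF library 2 alone 3 ligands and receptors were lower and 1 higher, and 2 targets were lower.

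Inflammatory genes were lower as well, those of complement and macrophages among them. Of 16 complement genes 15 were lower and 1 higher (median -1.88), and of 16 macrophage and myeloid markers 14 were lower and none higher (-2.06). C1qa, a chain of the complement initiator C1q that macrophages secrete, was at 292, 91.4 and 189 CPM in the HFpEF libraries and 32.8, 25.5 and 48.1 CPM in the EMPA + PFD libraries (log2 fold change -2.43 ± 0.47, adjusted p = 0.00141). Lyz2, the lysozyme of myeloid cells, was at 1835, 287 and 993 CPM and 110.2, 134 and 146 CPM (log2 fold change -2.997 ± 0.63, adjusted p = 0.00217), and Csf1r, the receptor macrophages need to survive, at 239, 83.3 and 153 CPM and 46.5, 36.5 and 63.0 CPM (log2 fold change -1.70 ± 0.34, adjusted p = 0.00161). HFpEF library 1 was the highest and library 2 the lowest at baseline for all 3, and library 2 still lay above every EMPA + PFD library. Masp1, a lectin-pathway protease, was the complement gene that rose, from 9.76, 10.6 and 27.8 CPM to 77.3, 132 and 98.7 CPM (log2 fold change 2.68 ± 0.46, adjusted p = 0.000726). Cd163, of resident macrophages, overlapped between the groups and did not pass (log2 fold change -1.01 ± 0.52, adjusted p = 0.124).

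Sums of the macrophage markers were 3776, 832 and 2159 CPM in the HFpEF libraries and 422, 389 and 583 CPM in the EMPA + PFD libraries, with Lyz2 the most abundant, and their part in the fall of other inflammatory genes was not tested. Complement had 8 lower DEGs without HFpEF library 1 and 9 without EMPA + PFD library 2. With only HFpEF library 2 at baseline 0 complement genes and 3 macrophage markers were lower DEGs in edgeR (medians -0.61 and -0.78), and C1qa (-1.36, adjusted p = 0.0755), Lyz2 (-1.14, adjusted p = 0.198) and Csf1r (-0.77, adjusted p = 0.119) no longer passed.

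Of 23 chemokines and receptors 9 were lower and 2 higher (median -1.25), and of 20 cytokines and receptors 9 were lower and 1 higher (-1.01). Among all genes tested 12.0% were lower and 10.7% higher. Cxcl16, a membrane-bound chemokine, was at 105, 99.2 and 86.6 CPM in the HFpEF libraries and 29.2, 21.5 and 38.3 CPM in the EMPA + PFD libraries (log2 fold change -1.70 ± 0.28, adjusted p = 0.000644). Csf1, the growth factor of macrophages, was at 85.1, 79.6 and 59.5 CPM and 35.2, 21.2 and 29.3 CPM (log2 fold change -1.39 ± 0.20, adjusted p = 0.000341), and Tnfrsf1a, the main receptor of tumor necrosis factor, at 181, 119 and 144 CPM and 64.1, 52.5 and 50.9 CPM (log2 fold change -1.41 ± 0.24, adjusted p = 0.000697). The EMPA + PFD libraries were below the HFpEF libraries for each, and HFpEF library 2 was not the lowest for Cxcl16 or Csf1. Cxcl14, a chemokine of epithelial and stromal cells, rose from 3.37, 1.56 and 1.96 CPM to 10.9, 6.34 and 14.6 CPM (log2 fold change 2.19 ± 0.52, adjusted p = 0.00404). Il1a, the cytokine interleukin 1 alpha, rose from 0.0718, 0 and 0.357 CPM to 5.44, 8.61 and 3.24 CPM (log2 fold change 5.24 ± 1.83, adjusted p = 0.0298), but did not pass without HFpEF library 1 (4.90, adjusted p = 0.0887), HFpEF library 2 (4.74, adjusted p = 0.0789) or EMPA + PFD library 2 (4.85, adjusted p = 0.0737), nor against HFpEF library 2 alone, which had no counts of it (adjusted p = 0.169). Without EMPA + PFD library 2, 5 chemokine genes were lower, and with HFpEF library 2 as the single baseline library 3 chemokine and 5 cytokine genes were.

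Some NF-kB and interferon genes were lower, as were 12.0% of all genes tested. Of 14 NF-kB subunits and targets 6 were lower and none higher (median -0.58). Icam1, an adhesion molecule for leukocytes, was at 62.6, 63.0 and 42.7 CPM in the HFpEF libraries and 28.0, 16.7 and 19.3 CPM in the EMPA + PFD libraries (log2 fold change -1.39 ± 0.24, adjusted p = 0.00083), and Nfkbia, the inhibitor that NF-kB itself induces, was at 393, 359 and 506 CPM and 234, 386 and 407 CPM (log2 fold change -0.29 ± 0.24, adjusted p = 0.320). Icam1 did not overlap between the groups, and Nfkbia did. Of 26 interferon response genes 4 were lower and none higher (median -0.72), among them Psmb8, a subunit of the immunoproteasome (53.2, 80.1 and 68.3 CPM in HFpEF, 30.5, 18.2 and 14.6 CPM in EMPA + PFD; log2 fold change -1.67 ± 0.24, adjusted p = 0.000308). Counts of lower NF-kB genes were 2 without HFpEF library 1, 2 without EMPA + PFD library 2, 3 without EMPA + PFD library 3 and 3 against HFpEF library 2 alone. Those of lower interferon genes were 8 without HFpEF library 1, 1 without HFpEF library 2, 8 without EMPA + PFD library 1 and 2 without EMPA + PFD library 2, and 12 with HFpEF library 2 as the single baseline library.

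Genes of vessels and of nitric oxide signaling, which L-NAME blocks, were DEGs about as often as all genes tested, in both directions. Of 21 genes of VEGF, angiopoietin and Notch signaling 2 were higher and 3 lower (median -0.19), and of 15 nitric oxide and cGMP genes 2 were higher and 2 lower (-0.09), while 22.7% of all genes were DEGs. With 1 library left out 1 or 2 were higher and 2 to 4 lower in the first list. In the second, 1 or 2 were higher and 1 to 3 lower. Against HFpEF library 2 alone 1 was higher and 3 lower in the first list (median -0.47), and 2 were higher and 4 lower in the second (-0.38). Angpt1, which stabilises vessels through the receptor Tek, was at 8.76, 6.14 and 6.70 CPM in the HFpEF libraries and 29.6, 57.0 and 58.2 CPM in the EMPA + PFD libraries (log2 fold change 2.74 ± 0.49, adjusted p = 0.000941), and Angpt2, its antagonist, at 76.2, 38.2 and 58.2 CPM and 20.0, 25.5 and 19.3 CPM (log2 fold change -1.42 ± 0.32, adjusted p = 0.00329). The angiopoietins moved in opposite directions with no overlap, and Angpt2 did not pass with HFpEF library 2 as the single baseline library (-0.82, adjusted p = 0.149). Nos3, the endothelial nitric oxide synthase, was at 141, 408 and 311 CPM and 221, 244 and 188 CPM (log2 fold change -0.40 ± 0.29, adjusted p = 0.261), and Nos1 (log2 fold change 0.28 ± 0.81, adjusted p = 0.793) and the inducible Nos2 (log2 fold change -0.09 ± 0.49, adjusted p = 0.886) were below 9 CPM in all 6 libraries. Ddah2, which breaks down endogenous inhibitors of these enzymes, was at 143, 141 and 119 CPM and 71.7, 42.2 and 26.1 CPM (log2 fold change -1.53 ± 0.26, adjusted p = 0.000763), and Prkg1, the cGMP-dependent kinase, rose by 1.85 ± 0.34. Slc5a2, which encodes the EMPA target SGLT2, was under 2 CPM in every library (log2 fold change 0.17 ± 0.45, adjusted p = 0.766), and Slc5a1, which encodes SGLT1, had 1 count in the 6 libraries and was not tested. Endothelial markers had none of 19 higher and 1 lower (median -0.54), with sums of 3382, 6753 and 5722 CPM in HFpEF and 4050.2, 3556 and 3599 CPM in EMPA + PFD and Eng the most abundant. The number of lower markers was 4 without HFpEF library 1, 3 without EMPA + PFD library 1, 0 without each of the other 4 and 7 with HFpEF library 2 as the single baseline library.

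Lists of the cytoskeleton, stress and the cell cycle are given beside the 22.7% of all genes that were DEGs, 10.7% higher and 12.0% lower. Of 24 genes of the non-muscle cytoskeleton 13 were lower and none higher (median -1.08), and 12 to 15 were lower whichever library was left out and 10 against HFpEF library 2 alone. Tmsb4x, which binds actin monomers, was at 3241, 3539 and 2576 CPM in the HFpEF libraries and 1054, 849 and 1011 CPM in the EMPA + PFD libraries (log2 fold change -1.68 ± 0.23, adjusted p = 0.000271), and S100a6, a calcium-binding protein of mesenchymal cells, at 342, 223 and 248 CPM and 62.6, 35.5 and 55.0 CPM (log2 fold change -2.41 ± 0.29, adjusted p = 0.000176). Both were more than 2-fold lower in every EMPA + PFD library than in any HFpEF library. Of 22 heat shock genes 6 were higher and 1 lower (median 0.58), with 11 higher against HFpEF library 2 alone, including Hspa9, the mitochondrial chaperone mortalin (126, 91.2 and 191 CPM in HFpEF, 506, 879.9 and 758 CPM in EMPA + PFD; log2 fold change 2.39 ± 0.41, adjusted p = 0.000716), and Hspb8, a small heat shock protein of muscle (log2 fold change 1.47 ± 0.29, adjusted p = 0.00161). Of 21 antioxidant genes 3 were higher and 1 lower (median 0.25, and 0.71 against HFpEF library 2 alone). Sod2, the mitochondrial superoxide dismutase, rose by 1.86 ± 0.40 and Cat, the catalase, by 1.61 ± 0.28, whereas the secreted Gpx3 fell from 1195, 1395 and 1196 CPM to 539, 329 and 488 CPM (log2 fold change -1.48 ± 0.38, adjusted p = 0.00698). Of 26 cell cycle genes 8 were lower and none higher (median -1.09), among them Mki67, a marker of dividing cells (log2 fold change -1.77 ± 0.44, adjusted p = 0.00587), a count that was 1 without HFpEF library 1, 13 without HFpEF library 2, 2 without HFpEF library 3, 2 without EMPA + PFD library 1 and 1 without EMPA + PFD library 2. With HFpEF library 2 as the single baseline library none of them passed, and Mki67 was at -0.997 (adjusted p = 0.217).

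Markers of further cell types described the mix of cells, and are given beside the 12.0% of all genes tested that were lower. Of 12 lymphocyte markers 9 were lower and none higher (median -1.55), with sums of 242, 116 and 172 CPM in the HFpEF libraries and 86.1, 42.6 and 86.9 CPM in the EMPA + PFD libraries and Cd4, which rat macrophages also express, the most abundant. The count was 4 without HFpEF library 1, 2 without EMPA + PFD library 2 3 without EMPA + PFD library 3 and 1 against HFpEF library 2 alone. Of 8 Schwann cell markers 5 were lower (median -1.89), with sums of 522, 77.1 and 114 CPM and 72.6, 56.3 and 72.8 CPM, so that HFpEF library 1 alone was several times higher than the rest, and 1 was lower without it (median -0.57). Without EMPA + PFD library 1, 2 or 3 the count was 3, 2 and 2. Red cell genes had 4 of 5 lower (median -2.98), with sums of 1799, 1435 and 3969 CPM and 143, 481 and 213 CPM. Hbb, a beta globin, was at 1601, 1269 and 3531 CPM and 105, 417 and 176 CPM (log2 fold change -3.20 ± 0.60, adjusted p = 0.00123), separated between the groups, although globin copies could have been split in counting. Among 11 smooth muscle and pericyte markers 3 were lower (median -0.61), with sums of 2739, 1877 and 1974 CPM and 1849.9, 1654 and 1602 CPM and Abcc9 the most abundant. None was lower without HFpEF library 1, and 1 was without each EMPA + PFD library. Mesothelial markers had a median of -4.49, or -2.35 with genes near 0 at their bound, with 4 of 6 lower, 2 without HFpEF library 1, and Krt18 and Krt19 at 0 in the EMPA + PFD libraries. The mesothelial median was -2.49 without HFpEF library 1 and reached -0.53 in another setting, and 4 of the 6 markers were genes near 0. Mesothelial sums overlapped, at 79.4, 121 and 134 CPM in HFpEF and 65.3, 85.0 and 55.4 CPM in EMPA + PFD. Wt1 was the most abundant. Against HFpEF library 2 alone no Schwann cell, smooth muscle or mesothelial marker passed (medians -0.35, -0.08 and -2.06), and 3 red cell genes were lower.

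**Figure D3:**
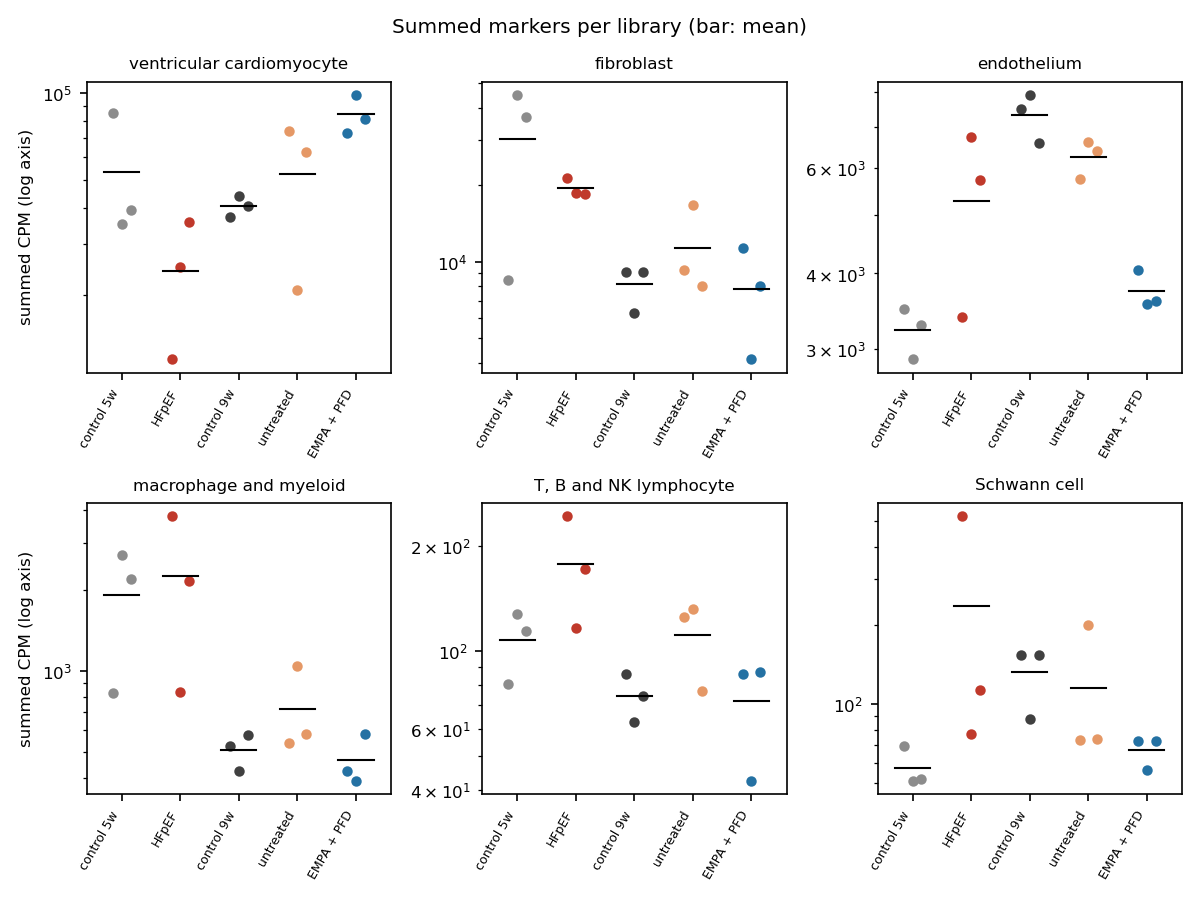
Summed CPM of 6 lists of cell type markers in each library of 5 groups, on log axes, 1 panel per list and 1 point per library, with a bar for the mean. Ventricular cardiomyocyte markers summed to 11978, 24942 and 35852 CPM in the HFpEF libraries and 72798, 98791 and 81709 CPM in the EMPA + PFD libraries, and macrophage markers to 3776, 832 and 2159 CPM and 422, 389 and 583 CPM.

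Over the same weeks metabolic genes moved differently in control hearts, and some matrix genes were lower there too. Of 12388 genes tested 1817 (14.7%) differed between control 9w and control 5w, 924 higher (7.46%) and 893 lower (7.21%), and the model tested the difference between the change from HFpEF to EMPA + PFD and the change in controls directly. That difference passed for 3624 genes (29.3%), 1834 with a higher value in the EMPA + PFD comparison (14.8%) and 1790 with a lower one (14.4%). Every control and EMPA + PFD library had Eif2s3y counts and HFpEF libraries 1 and 3 had none. Apparent sex was therefore not balanced in this difference. With the Eif2s3y term, which only the HFpEF libraries inform, 3360 genes passed, 2819 of them shared with the 3624. Median log2 changes of all genes were -0.04 in controls and -0.13 for the difference, the latter -0.23 with upper quartile scaling. That scaling gave 1667 genes with a higher and 2062 with a lower value for the difference. Beta-oxidation had a median of -0.44 in controls and the TCA cycle -0.89, and the difference passed upward for 12 of 15 and 13 of 14 genes. Calcium handling had a control median of -0.55 and 11 of 12 genes with an upward difference. The median differences were 2.52, 2.71 and 2.55, and that of ventricular cardiomyocyte markers was 2.51, upward for 5 of 9, so the mix of cells was not separated from these differences. Cs was at 706 ± 238 CPM (SD, 3 libraries) in control 5w and 176 ± 9.94 CPM in control 9w, so that it fell in controls (-2.003) and rose in the EMPA + PFD comparison (2.70), a difference of 4.71 ± 0.60 (adjusted p = 7.91e-05). Ogdh, Hadh and Ndufs1 had differences of 4.77, 5.43 and 4.74, and Hspa9 of 4.14. The atrial light chain Myl4 was at 305, 2.95 and 1381 CPM in control 9w, so that libraries 1 and 3 stood apart. Atrial markers summed to 754, 363 and 376 CPM in control 5w and 1649, 70.3 and 6698 CPM in control 9w, against 67.3, 74.4 and 95.8 CPM in HFpEF. A setting without control 9w libraries 1 and 3 was added after seeing the data. It left 1 library in that group, which was assumed to vary like the other groups. Median log2 changes of all genes were then -0.05 in controls and -0.08 for the difference. The count of control DEGs was 1206 without control 9w library 2, and control 5w library 1 was unlike libraries 2 and 3, with summed ventricular cardiomyocyte markers of 85259 CPM against 35140.3 and 39402 CPM and summed fibroblast markers of 8490.01 CPM against 45039 and 36917 CPM.

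In controls 8 of 18 collagens were lower (median -1.75), and the difference passed for 1 collagen upward and 1 downward. Control 5w library 1 was unlike libraries 2 and 3 here: Col3a1 was at 1319.9, 25573 and 20226 CPM in control 5w against 1449.6, 1023 and 1766 CPM in control 9w, so library 1 lay within the control 9w range. Non-collagen matrix had a control median of -1.89 (10 of 20 lower, difference downward for 4), fibroblast markers -1.74 (10 of 15 lower, difference downward for 1) and macrophage markers -1.51 (10 of 16 lower, difference downward for 1). Tgfb1 was at 67.9 ± 15.7 CPM in control 5w and 61.0 ± 7.61 CPM in control 9w (log2 fold change -0.16 ± 0.18, adjusted p = 0.515), and its difference was -1.38 ± 0.25 (adjusted p = 0.000724). In controls 14 of 19 endothelial markers (median 1.23) and 12 of 26 interferon genes (median 0.81) were higher at week 9, and the difference passed downward for 17 endothelial markers and 19 interferon genes. Pecam1, an adhesion molecule of endothelium, was at 213 ± 11.5 CPM and 628 ± 57.7 CPM in the controls and 241, 383 and 398 CPM in HFpEF and 252, 367 and 284 CPM in EMPA + PFD, with a difference of -1.74 ± 0.29 (adjusted p = 0.000447). Non-muscle cytoskeleton genes had a control median of -0.30 and a downward difference for 13 of 24, with Tmsb4x at -2.29 ± 0.32.

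The DEGs of the EMPA + PFD comparison and those of the control comparison, which share no library, had 680 genes in common, 24.2% of the first and 37.4% of the second. Of these 364 moved the same way and 316 oppositely, 245 of them higher in EMPA + PFD than in HFpEF and lower in control 9w than in control 5w. Hcn4 was among the 5 genes with the largest upward difference: it was at 53.9 ± 5.50 CPM in control 5w and 1.41 ± 1.06 CPM in control 9w, against 3.07 ± 1.44 CPM in HFpEF and 19.2 ± 5.25 CPM in EMPA + PFD (difference 7.83 ± 0.71, adjusted p = 1.19e-05). Sphkap had the same shape (59.0 ± 4.09, 5.42 ± 2.85, 5.81 ± 2.26 and 106 ± 44.1 CPM; difference 7.61 ± 0.74). Angpt2 went the other way, at 14.8 ± 1.05, 40.5 ± 5.26, 57.6 ± 18.998 and 21.6 ± 3.37 CPM in the same order (difference -2.87 ± 0.46).

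Untreated hearts at week 9 were compared with both groups. Against untreated hearts 473 genes (3.82%) differed in EMPA + PFD, 290 higher (2.34%) and 183 lower (1.48%), and 240 higher and 275 lower with upper quartile scaling. From HFpEF to untreated 24 genes (0.194%) differed, 14 higher (0.113%) and 10 lower (0.0807%). DESeq2 gave 441, 213 higher and 228 lower, and limma 1076, 350 higher and 726 lower. The Eif2s3y term gave 52 higher and 207 lower. Eif2s3y had no counts in the untreated libraries, so apparent sex and treatment cannot be told apart in EMPA + PFD against untreated. Myl4 was at 4.33, 1597 and 4.85 CPM in the untreated libraries, so library 2 carried atrial genes. That library also had ventricular cardiomyocyte markers at 20759 CPM against 73858 and 62476 in libraries 1 and 3, fibroblast markers at 16675 against 9243 and 8017, and macrophage markers at 1047 against 538 and 581. These comparisons share libraries with the first, and their median log2 changes over all genes were -0.03 and -0.01. Beta-oxidation had medians of 1.14 for EMPA + PFD against untreated and 1.23 for untreated against HFpEF, the TCA cycle 0.93 and 0.97, calcium handling 1.02 and 1.17, collagens -0.63 and -1.24, macrophage markers -0.58 and -1.43, and ventricular cardiomyocyte markers 0.80 and 1.14. No gene of these lists passed for untreated against HFpEF, and against untreated 1 of 15 beta-oxidation genes, 2 of 14 TCA cycle genes, 4 of 12 calcium genes, 1 of 9 cardiomyocyte markers and no collagen or macrophage marker passed. These list medians and counts include untreated library 2 and were not made without it. Cs was at 120 CPM in that library, against 598 and 380 CPM in libraries 1 and 3. Whether the lists moved in untreated hearts is therefore open. Genes that passed against untreated included Ppargc1a (log2 fold change 2.04 ± 0.37, adjusted p = 0.00883), Ogdh (log2 fold change 1.70 ± 0.35, adjusted p = 0.0127), Ryr2 (log2 fold change 1.10 ± 0.33, adjusted p = 0.0447), Chrm2 (log2 fold change 2.36 ± 0.43, adjusted p = 0.00854), Angpt1 (log2 fold change 2.35 ± 0.48, adjusted p = 0.0129) and Loxl1 (log2 fold change -2.29 ± 0.70, adjusted p = 0.0469), and those that did not included Hadh (log2 fold change 1.83 ± 0.61, adjusted p = 0.0615), Tgfb1 (log2 fold change -0.89 ± 0.18, adjusted p = 0.0127) and Col3a1 (log2 fold change -0.71 ± 0.72, adjusted p = 0.501). Both counts depended on single libraries and on the fit. With only the groups compared, EMPA + PFD against untreated had 5 DEGs, 4 higher and 1 lower. The genes named here as passing could therefore not all keep their call, and whether any of them did was not checked. With the Eif2s3y term 114 of the 473 were shared. EMPA + PFD against untreated had 59 DEGs without EMPA + PFD library 2, 83 without untreated library 2, 159 without EMPA + PFD library 3, 210 without untreated library 3, 793 without EMPA + PFD library 1 and 910 without untreated library 1. Untreated against HFpEF had 4 without HFpEF library 1, 6 without untreated library 1 or 3, 10 without HFpEF library 3, 260 without HFpEF library 2 and 933 without untreated library 2.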

How the data were processed

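RNA from left ventricles, 1 heart per library, was sequenced, and the authors deposited counts per gene from htseq-count, made after trimming (Trim Galore) and HISAT2 alignment to the rat genome rn6, with no strand setting stated. All 19 libraries entered 1 model with 7 groups in edgeR 4.0.16 (R 4.3.3): genes kept by filterByExpr, TMM factors, quasi-likelihood F test and Benjamini-Hochberg adjustment over the 12388 genes tested in each comparison. Standard errors were the absolute log2 fold change divided by the square root of F. CPM used TMM effective library sizes, and figures were drawn in Python 3.11.15. Members and gene lists were chosen with earlier results of these data known, and lists are described by counts and medians without a set test. Genes named were taken from these sets: of DEGs with non-overlapping groups and a mean of at least 5 CPM in the higher group, the 10 largest rises, the 10 largest falls, the 8 smallest adjusted p and, for the difference between the 2 comparisons, the 5 largest each way. Each list added its 3 DEGs with the smallest adjusted p and its DEG with the highest mean per direction and the member with the highest mean that was not a DEG. Cell type markers, label genes and drug targets could also be named. Alternatives used DESeq2 1.42.0, limma 3.58.1, other scaling and filters, and libraries left out.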

Additional observations from a re-analysis of the deposited data

Results flagged for a closer look

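The change from HFpEF to EMPA + PFD and the change from control 5w to control 9w differed by a direct test for 3624 genes, and 316 genes passed in both comparisons with opposite directions and in the test of their difference. Apparent sex was not balanced in that test, as HFpEF libraries 1 and 3 had no Eif2s3y counts. Among the genes named above, with more than 3 counts in some library of each of the 4 groups, the metabolic ones that did so, all higher in EMPA + PFD and lower in control 9w, were Cs (4.71), Hadh (5.43), Hadhb (4.74), Hk2 (4.80), Ndufs1 (4.74), Ogdh (4.77), Oxct1 (3.15), Pdha1 (2.98), Pdp1 (2.98), Sdha (3.49), Slc16a1 (3.66), Uqcrc2 (3.46), Esrrb (5.46), Esrrg (3.76), Hspa9 (4.14) and Sod2 (3.16), where values are differences in log2 fold change. Ventricular cardiomyocyte markers had a median difference of 2.51, upward for 5 of 9. Genes of contraction, excitation and signaling with the same pattern were Adra1a (4.99), Cdh2 (3.03), Chrm2 (5.96), Fbxo32 (4.21), Gja1 (2.86), Hcn4 (7.83), Limch1 (3.47), Nebl (4.15), Ppp2r3a (3.41), Prkar2a (3.07), Prkce (3.57), Slc8a1 (3.18) and Sphkap (7.61). The opposite pattern was found for the vascular genes Angpt2 (-2.87) and Eng (-2.25). In EMPA + PFD against HFpEF, Angpt2 did not pass against HFpEF library 2 alone (-0.82, adjusted p = 0.149), and Eng fell short of 2-fold without HFpEF library 2 (-0.95), HFpEF library 3 (-0.995), EMPA + PFD library 2 (-0.96) or EMPA + PFD library 3 (-0.95).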

How the results depend on the processing

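Of 144 named genes tested, 133 to 144 kept direction and side of the threshold under each setting but 3, some not being tested with only the groups compared. With at least 10 counts in every library 116 kept both, 1 newly passed and the others were not tested. With the term for Eif2s3y counts 111 kept both, and with HFpEF library 2 as the single baseline library, added after seeing the data, 112. Of 68 list medians the last 2 settings moved 30 each by more than the spread between libraries.

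EMPA + PFD against HFpEF gave 2813 DEGs, 1759 with the Eif2s3y term, which only the HFpEF libraries inform, 5796 by adjusted p alone, 1780 with HFpEF library 2 as the single baseline library and 2024 (without EMPA + PFD replicate 2) to 2968 (without HFpEF replicate 3) with 1 library left out. The control comparison gave 1817, 4276 by adjusted p alone and 1206 to 2025 with 1 library left out, and the difference between the 2 gave 3624, 5537 and 3157 to 3734. EMPA + PFD against untreated gave 473, and 714 with DESeq2, 834 with limma, 5 with only the groups compared, 429 with the Eif2s3y term (172 higher and 257 lower, 114 shared with the 473), which here coincides with group, 1501 by adjusted p alone and 59 to 910 with 1 library left out. Untreated against HFpEF gave 24, and 441 with DESeq2, 1076 with limma, 1 with only the groups compared, 259 with the Eif2s3y term and 4 to 933 with 1 library left out. The cause of these moves was not tested.

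A replicate block on the replicate number gave 2683, 1680, 3452, 380 and 8 DEGs in the same order. Numbers did not pair the libraries: same-numbered HFpEF and EMPA + PFD libraries had deviations correlated at -0.0682, -0.0650 and -0.0553, and none correlated best with its own number.

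Values that reversed, among medians beyond 1 SD between libraries, were LOC100911498 (from -12.05 to 1.41 with the Eif2s3y term, 1.41 with HFpEF library 2 as the single baseline library), the medians of endoplasmic reticulum stress genes (from -0.23 to 0.0231 and 0.0240) and adipocyte markers (from -2.04 to 2.01 and 1.98, 2.13 with at least 10 counts in every library and 2.18 with only the groups compared), and the median of VEGF, angiopoietin and Notch genes (-0.19, and -0.52 without HFpEF replicate 1 to 0.11 without HFpEF replicate 2). Smaller medians also changed sign: immediate early genes (0.35 with HFpEF library 2 alone or the Eif2s3y term, 0.05 without HFpEF replicate 1), fetal genes (-0.22 without HFpEF replicate 2, -0.30 with at least 10 counts in every library, -0.06 with limma), atrial markers (0.05 without HFpEF replicate 3) and nitric oxide genes (0.00 without EMPA + PFD replicate 2). Their causes were not tested. At 9360259 to 12205327 counts per library, genes under about 1 CPM rest on some 10 counts per library.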

Other observations

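Genes of RNA splicing and protein turnover were counted beside the 22.7% of all genes that were DEGs. Of 20 splicing genes 4 were higher and 1 lower in EMPA + PFD (median 0.12). Rbm20, which splices titin, was at 44.1, 70.1 and 109 CPM in the HFpEF libraries and 226, 376 and 252 CPM in the EMPA + PFD libraries (log2 fold change 1.93 ± 0.31, adjusted p = 0.000483), and Rbfox1, a splicing factor of muscle and neurons, at 6.24, 45.2 and 35.7 CPM and 132, 209.7 and 226 CPM (log2 fold change 2.71 ± 0.55, adjusted p = 0.00183). Srsf9, a serine-arginine splicing factor, was lower, at 34.5, 41.0 and 31.3 CPM and 16.8, 14.5 and 16.9 CPM (log2 fold change -1.15 ± 0.20, adjusted p = 0.000733). Groups did not overlap for these 3 genes. Of 16 genes of atrophy, autophagy and FOXO 5 were higher and none lower (median 0.38; 3 without HFpEF library 1, without EMPA + PFD library 2 or against HFpEF library 2 alone), among them Trim63, the ubiquitin ligase MuRF1, at 40.1, 102 and 104 CPM and 247, 372 and 292 CPM (log2 fold change 1.89 ± 0.32, adjusted p = 0.000726). Of 36 proteasome genes 1 was higher and 2 were lower (median 0.24).

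Other stress responses were counted in the same way. Of 22 genes of endoplasmic reticulum stress 1 was higher and none lower (median -0.23), namely Herpud1, which helps clear misfolded proteins (122, 102 and 153 CPM in HFpEF, 249, 469 and 450.4 CPM in EMPA + PFD; log2 fold change 1.63 ± 0.29, adjusted p = 0.000837). Of 25 immediate early genes 5 were higher and 2 lower (median -0.16), with 1 higher without HFpEF library 2 and 3 without HFpEF library 3 or EMPA + PFD library 1 or 2. None was lower without HFpEF library 3 or EMPA + PFD library 3. Btg2, an antiproliferative early gene, was at 138, 143 and 187 CPM and 355, 405 and 267 CPM (log2 fold change 1.13 ± 0.16, adjusted p = 0.000308). Of 15 clock genes none was higher and 1 lower (median 0.49), with 6 higher without EMPA + PFD library 1 and 5 against HFpEF library 2 alone.

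Further markers were sparse, and are given beside the 10.7% of all genes tested that were higher and the 12.0% that were lower. Adipocyte markers had 1 of 3 tested higher (median -2.04, or -0.52 with genes near 0 at their bound), while their sums, mostly Cidea, were 28.1, 32.9 and 55.9 CPM in the HFpEF libraries and 117, 201 and 181 CPM in the EMPA + PFD libraries. Atrial markers had none of 7 higher or lower in edgeR (median -0.16), with sums of 67.3, 74.4 and 95.8 CPM in the HFpEF libraries and 80.2, 49.9 and 62.2 CPM in the EMPA + PFD libraries and Gja5, a connexin, the most abundant. Conduction markers had 1 of 6 higher (median -0.82), with Isl1 at 0 in all 6 libraries. Cartilage and bone markers had 2 of 6 lower (median -2.84), with sums of 1065, 49.2 and 225 CPM and 43.9, 39.7 and 40.2 CPM and Spp1 the most abundant. The median of these markers was -0.04 without HFpEF library 1 and -0.25 against HFpEF library 2 alone, with 4 lower without HFpEF library 3 and none in the latter setting.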
